A study of Mus musculus with 6 samples.

Results

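Genes that mark the inner lining of blood vessels were followed in mouse hearts as 2 small sets. The first holds 6 identity genes of endothelial cells, Pecam1, Cdh5, Kdr, Tek, Emcn and Vwf, and the second holds 4 adhesion molecules, Icam1, Vcam1, Sele and Selp. They were chosen by symbol, with earlier results of these data known. Each of the 10 symbols labels 1 of the 50385 genes of the count table. All 10 passed the filter on low counts, as did 20472 genes in all. The 6 libraries come from hearts of male Mdx/Utrn dKO mice, which carry the mdx mutation of dystrophin and also lack its relative utrophin, a severe model of Duchenne muscular dystrophy. Mice were 2 to 3 months old when treatment began. For 12 weeks, they were given setanaxib by gavage every day at 60 mg/kg, a drug that inhibits the oxidase Nox4, or its vehicle, corn oil, in the same way, and each group has 3 libraries. Lists of 3 values per group below follow replicates 1 to 3. Both groups share the genotype, no wild-type or untreated heart is among the libraries, and the comparison is setanaxib against vehicle.

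Endothelial cells line every vessel and form a barrier between blood and tissue. Their identity genes encode the junction proteins, growth factor receptors and surface glycoproteins that hold this lining together and let it respond to vessel growth signals. In inflammation the same cells display adhesion molecules. Selectins slow passing leukocytes, and Icam1 and Vcam1 then bind leukocyte integrins so that the cells stop and leave the vessel. In dystrophic muscle, where fibres break and macrophages enter, these molecules stand at the entry point of immune cells. The labels name the tissue as heart, which holds many cell types. Fewer cells of a type and less RNA per cell therefore cannot be told apart in any value below.

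None of the 10 genes passed the test between the groups. The level of general endothelial genes was close in both groups: Pecam1 differed by 0.06 on the log2 scale and Cdh5 by -0.14. Kdr was the 1 member whose setanaxib libraries all lay below all vehicle libraries, at 64.4% of the vehicle mean, and it too missed the threshold. The 4 adhesion molecules all had negative log2 fold changes, from -0.72 to -0.27, with overlapping groups. Vwf had its highest value in setanaxib replicate 3, a library that also held the most RNA of atrial and endocardial genes, and several members' differences were larger without it. The test was edgeR's quasi-likelihood F test over 20472 genes, with Benjamini-Hochberg adjusted p-values and a threshold of 0.05, which 0.00488% of all genes tested passed. DESeq2 called 0 of the 10 members and 2.41% of all genes. Before adjustment, edgeR put 0 of the 10 members and 8.46% of all genes under 0.05. In DESeq2, Kdr was the member of lowest p, with an adjusted p of 0.253. Each library carries a different number in its title. The labels do not say that these are numbers of animals, so the p-values rest on how far libraries of a group differ, which may be technical.

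**Figure D1:**
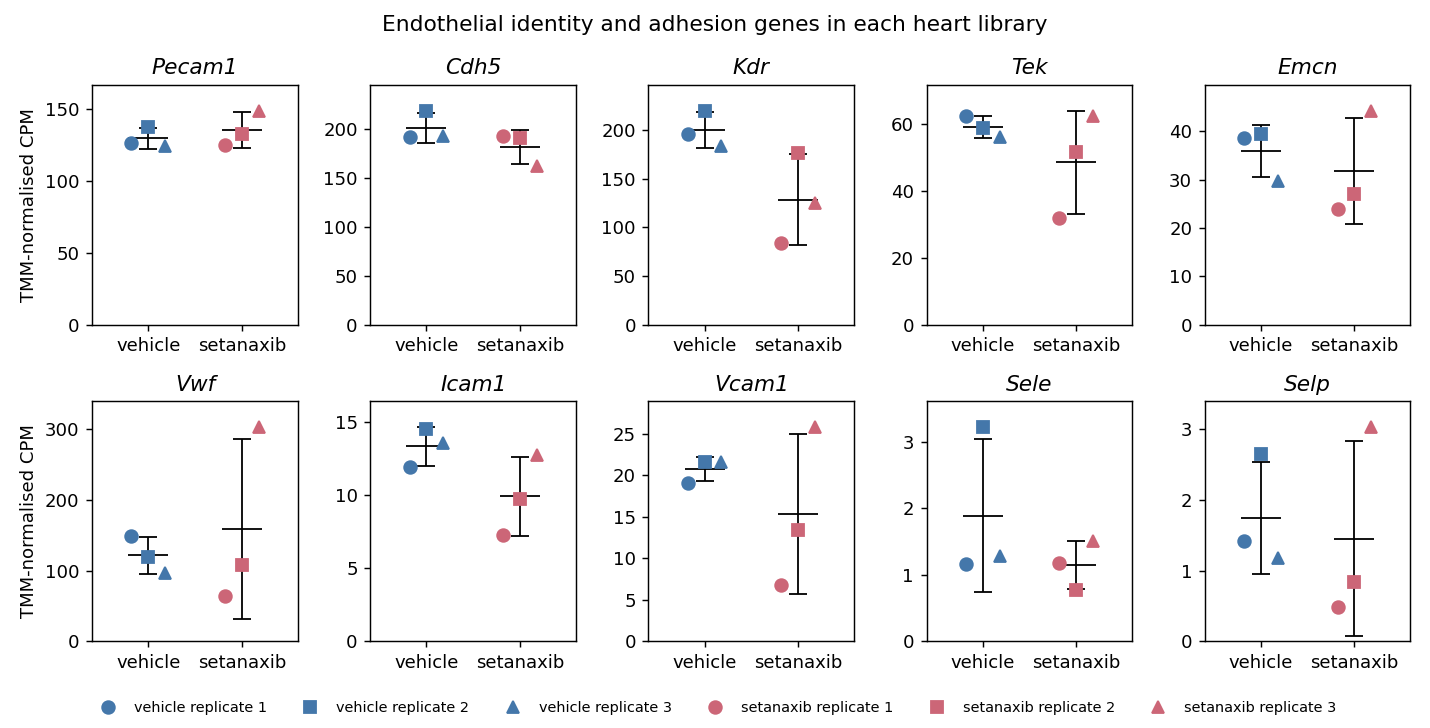
Level of each member in each library, as CPM (estimated counts per unit of library size, after scaling by trimmed mean of M values, TMM) on a linear axis from 0; each symbol is 1 library, the long bar is the group mean and the whiskers are 1 SD (n = 3). Pecam1 and Cdh5 lie in narrow bands, the Kdr libraries of the 2 groups do not overlap, and Vwf stands at 303 CPM in setanaxib replicate 3.

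Setanaxib replicates 1 and 3 were at opposite ends for several members. Of the 10 members, 7 were lowest in setanaxib replicate 1 and 5 were highest in setanaxib replicate 3. The setanaxib libraries spread more widely than the vehicle libraries (SD of log2 CPM) for 9 of the 10 members, and for 75.2% of all genes tested. Atrial heart muscle markers were high in setanaxib replicate 3: Myl7 was at 23.3, 0.10 and 21.4 CPM in the vehicle libraries and at 0.605, 1.33 and 637 CPM in the setanaxib libraries. The 4 tested of 6 atrial markers summed to 124 to 570 CPM with vehicle and to 68.1 to 2921 CPM with setanaxib. Some fat and airway genes were high in the same library. The summed level of the adipocyte list was 0 to 3.87 CPM with vehicle and 0.456 to 99.6 CPM with setanaxib, over the 2 of 6 genes tested. These were Cidec and Cfd, at 50.2 and 49.4 CPM in setanaxib replicate 3. Of the adipocyte genes not tested, Plin1, Retn and Lep were at 8.71, 4.25 and 1.09 CPM there. Adipoq was at only 0.0911 CPM there and at 0 elsewhere. The airway gene Scgb1a1 was at 598 CPM there and at most 19.6 CPM elsewhere, while the lung epithelial genes Sftpc and Sftpb were at 1.34 and 2.76 CPM there and at 0 in the other 5. Of the other lung markers, Sftpa1 was at 3.73 CPM there and at 0 elsewhere, and Cldn18 was at 0 in every library. Ager went another way, at 1.53, 0.540 and 0.516 CPM in the setanaxib libraries and at most 0.257 CPM with vehicle. Mitochondrial genes took 30.0% of the counts in setanaxib replicate 1 and 20.5% in setanaxib replicate 3, the extremes of the series, against 23.5% to 26.8% in the other 4 libraries. The TMM factors were 0.892 and 1.19 in these 2 libraries and 0.949 to 1.03 in the other 4. The part of such tissues, if present, or of RNA composition in any member's value was not tested. Values without setanaxib replicate 3 stand beside each member's result. Library totals ran from 110803307 to 154003318 estimated counts.

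Among the identity genes, Pecam1 encodes the junction protein CD31, the usual stain for blood vessels. Its level was 127, 138 and 125 CPM in the vehicle libraries and 125, 133 and 149 CPM in the setanaxib libraries. The groups overlapped and no library stood far from the rest. On the log2 scale the change was 0.06 (SE 0.10, 95% interval -0.18 to 0.31, edgeR adjusted p = 0.915), and -0.01 without setanaxib replicate 3. Over all 6 libraries Pecam1 spanned 0.26 log2 units, a range as narrow or narrower in 18.7% of the 658 genes of like level (mean log2 CPM within 0.5).

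Cdh5 encodes VE-cadherin, the adhesion protein of endothelial junctions. It stood at 192, 219 and 193 CPM in the vehicle libraries and at 194, 191 and 162 CPM in the setanaxib libraries. The lowest value was that of setanaxib replicate 3, and the other setanaxib libraries were level with vehicle replicates 1 and 3. Its log2 fold change was -0.14 (SE 0.11, interval -0.41 to 0.12, edgeR adjusted p = 0.787). It was -0.06 without setanaxib replicate 3 and -0.08 without vehicle replicate 2.

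Kdr encodes VEGFR2, the main receptor through which VEGF-A drives vessel growth. It was at 196, 220 and 184 CPM in the vehicle libraries and at 84.0, 177 and 125 CPM in the setanaxib libraries. All 3 setanaxib libraries lay below the lowest vehicle library, setanaxib replicate 2 by a small margin and setanaxib replicate 1 by more than 2-fold. Groups stood apart for 1 of the 10 members, against 17.6% of all genes tested, and 9.46% were apart in the direction of lower with setanaxib. The means were 200 ± 18.4 and 129 ± 46.4 CPM (SD, n = 3), with a log2 fold change of -0.64 (edgeR SE 0.26, interval -1.27 to 0.00, adjusted p = 0.591). Set beside Cdh5 in the same library, Kdr was at a log2 ratio of 0.03, 0.01 and -0.07 with vehicle and of -1.20, -0.11 and -0.38 with setanaxib. The ratio was lowest in setanaxib replicates 1 and 3. The log2 fold change of Kdr was -0.61 without setanaxib replicate 3, -0.93 without setanaxib replicate 2 and -0.41 without setanaxib replicate 1.

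Tek encodes TIE2, the receptor of the angiopoietins, which keeps mature vessels quiet and tight. Its level was 62.5, 58.7 and 56.0 CPM in the vehicle libraries and 31.9, 51.6 and 62.3 CPM in the setanaxib libraries. Only setanaxib replicate 1 stood well below the rest. Tek was at a log2 fold change of -0.28 (edgeR SE 0.24, adjusted p = 0.815), and -0.50 without setanaxib replicate 3 (adjusted p = 0.373) but -0.06 without setanaxib replicate 1.

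Emcn encodes endomucin, a mucin-like glycoprotein of capillary and venous endothelium that keeps leukocytes off the resting vessel wall. It was at 38.7, 39.4 and 29.8 CPM in the vehicle libraries and at 23.9, 27.2 and 44.3 CPM in the setanaxib libraries. Setanaxib replicates 1 and 2 were the lowest of the 6 and setanaxib replicate 3 the highest. Emcn was at a log2 fold change of -0.18 (edgeR SE 0.25, adjusted p = 0.903), and -0.49 without setanaxib replicate 3 (SE 0.15, adjusted p = 0.298). It was -0.02 without setanaxib replicate 1 and -0.08 without setanaxib replicate 2, and -0.13, -0.11 and -0.30 without vehicle replicates 1, 2 and 3.

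Vwf encodes von Willebrand factor, the clotting protein that endothelial cells store and that tethers platelets. It was at 149, 120 and 96.9 CPM in the vehicle libraries and at 64.1, 108 and 303 CPM in the setanaxib libraries. The 2 extremes of the series were both setanaxib libraries, a 4.73-fold span against 1.53-fold among vehicle libraries. Its span over all libraries, 2.24 log2 units, was exceeded by fewer than 1% of the 704 genes of like level (percentile 99.7). For Vwf the log2 fold change was 0.38 (SE 0.55, edgeR adjusted p = 0.905) and turned to -0.49 without setanaxib replicate 3 (SE 0.28, adjusted p = 0.481). It was 0.75 without setanaxib replicate 1, 0.59 without setanaxib replicate 2 and 0.24 without vehicle replicate 3.

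Genes of the endocardium, the lining of the heart chambers, were high in the same library as Vwf. Npr3, a natriuretic peptide receptor of this lining, was at 26.6, 24.4 and 23.2 CPM in the vehicle libraries and at 10.2, 23.6 and 121 CPM in the setanaxib libraries. Plvap, a protein of fenestrated endothelium, was at 13.9 CPM or less in 5 libraries and at 46.5 CPM in setanaxib replicate 3. The 8 endocardial markers, Vwf among them, summed to 226 to 289 CPM with vehicle and to 155 to 606 CPM with setanaxib, and none of them was at 0 in any library. Vwf itself made up 303 of the 606 CPM in setanaxib replicate 3 and 96.9 to 149 CPM of the vehicle sums. The sum therefore follows Vwf in part. Nfatc1, a transcription factor of the endocardium, was level across the libraries, between 39.7 and 52.2 CPM. No endocardial marker reached an unadjusted p under 0.05. Of 10 capillary markers, 8 were higher and 2 lower, with a median log2 fold change of 0.27, and in setanaxib replicate 3 they did not move as a group. Cd36, Gpihbp1, Kcna5 and Cd300lg were at their lowest there, while Aqp1, Fabp4 and Rgcc were above all vehicle libraries. Cd36, the most abundant of them, was at 536 CPM there, at 907 and 1004 CPM in setanaxib replicates 1 and 2 and at 731 to 868 CPM with vehicle. The part of chamber lining in the value of Vwf was not tested.

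**Figure D2:**
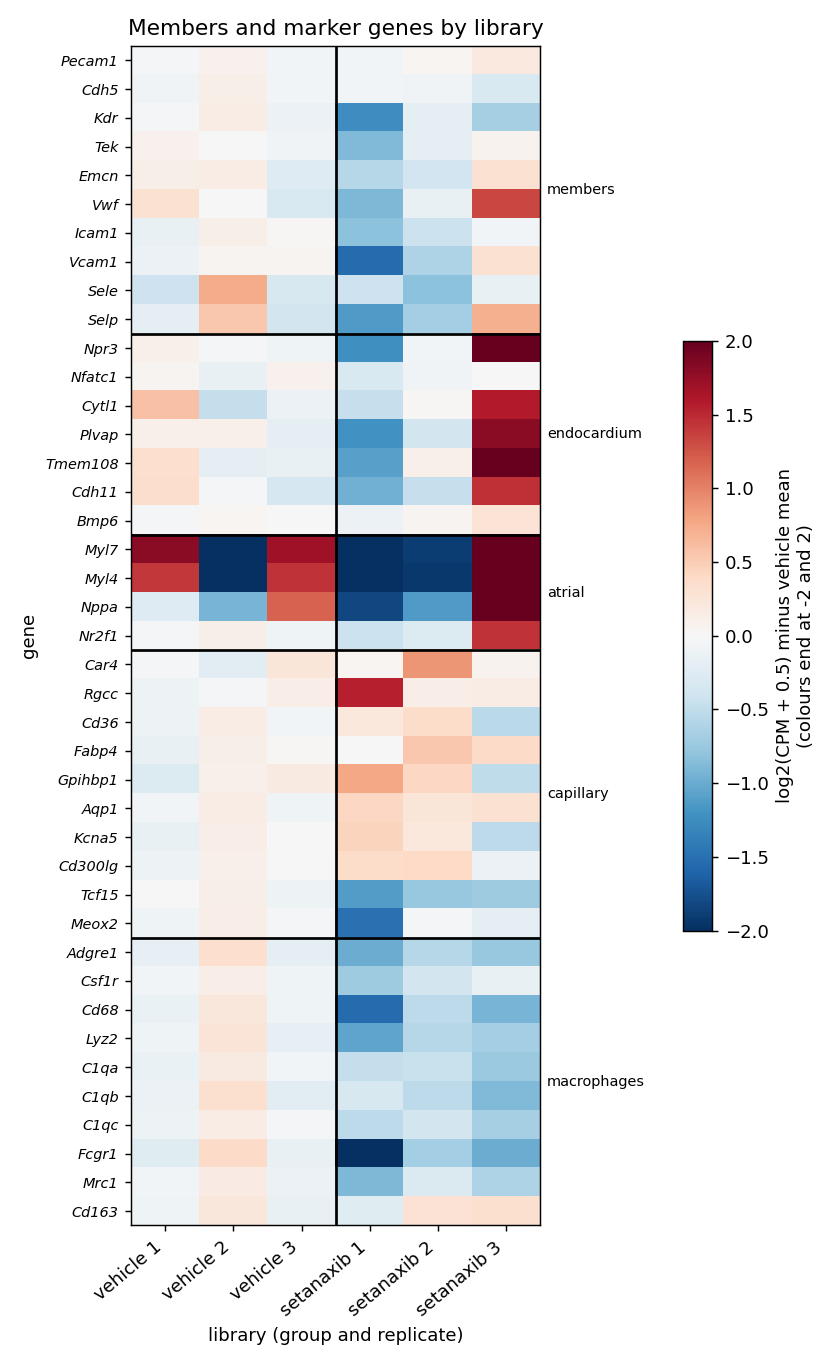
Each row is a gene, each column a library, and the colour is log2(CPM + 0.5) minus the mean of the 3 vehicle libraries, limited to -2 and 2; rows show the 10 members, then tested markers of the endocardium, atria, capillaries and macrophages that are not members. Vwf, Npr3, Plvap and the atrial genes Myl7 and Myl4 are high together in setanaxib replicate 3, and Vcam1 and Selp are lowest in setanaxib replicate 1.

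Per length, the identity genes were far more abundant than the adhesion molecules. In vehicle hearts, mean CPM per kb of exon was 50.4 ± 3.84 for Cdh5, 33.7 ± 3.11 for Kdr and 31.4 ± 1.70 for Pecam1 (SD, n = 3). Over the vehicle libraries Kdr ran from 31.1 to 37.1 and Pecam1 from 30.2 to 33.4 CPM per kb. These ranges overlap, but they leave out that both genes were measured in the same libraries. Emcn, Tek and Vwf followed at 13.9 ± 2.07, 12.6 ± 0.690 and 12.4 ± 2.65 CPM per kb, also with overlapping ranges. Icam1 was at 5.26 ± 0.520 and Vcam1 at 4.17 ± 0.294 CPM per kb, with no overlap between their vehicle libraries. Sele and Selp were at 0.650 ± 0.396 and 0.508 ± 0.230 CPM per kb and did not differ beyond their spread. All 6 identity genes were found in every library, with 3042 or more estimated counts each. In heart tissue of many cell types this does not show which cells made the RNA.

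Promoters of the adhesion molecules are textbook targets of NF-kB, the transcription factor that inflammatory cytokines activate. They are shown for 3 of the adhesion molecules, whose log2 fold changes were all negative, and for Kdr, whose groups stood apart. The table of promoters (RefSeq, GRCm38.p6) held 6 of the 10 members, Kdr, Tek, Emcn, Icam1, Sele and Selp. Each sequence is the 250 bases before the annotated start of the gene, written in the direction of transcription, and capitals mark matches to either of 2 NF-kB forms on either strand. The windows are chr9:21015690-21015939 on the plus strand for Icam1, chr1:164047984-164048233 on the plus strand for Sele, chr1:164115014-164115263 on the plus strand for Selp and chr5:75978456-75978705 on the minus strand for Kdr.
Icam1: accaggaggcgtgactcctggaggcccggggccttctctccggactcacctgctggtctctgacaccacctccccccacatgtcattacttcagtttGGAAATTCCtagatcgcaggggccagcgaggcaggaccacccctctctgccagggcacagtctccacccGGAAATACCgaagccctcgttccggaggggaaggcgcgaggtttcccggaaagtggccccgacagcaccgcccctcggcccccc
Sele: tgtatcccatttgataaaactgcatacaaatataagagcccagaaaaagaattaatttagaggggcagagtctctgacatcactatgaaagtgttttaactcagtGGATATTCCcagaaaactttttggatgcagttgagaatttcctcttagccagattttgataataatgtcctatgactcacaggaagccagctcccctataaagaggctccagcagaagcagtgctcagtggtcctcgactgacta
Selp: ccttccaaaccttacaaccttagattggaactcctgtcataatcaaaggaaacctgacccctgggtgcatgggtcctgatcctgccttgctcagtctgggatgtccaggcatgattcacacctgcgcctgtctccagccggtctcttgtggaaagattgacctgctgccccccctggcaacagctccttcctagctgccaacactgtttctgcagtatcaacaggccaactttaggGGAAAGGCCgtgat
Kdr: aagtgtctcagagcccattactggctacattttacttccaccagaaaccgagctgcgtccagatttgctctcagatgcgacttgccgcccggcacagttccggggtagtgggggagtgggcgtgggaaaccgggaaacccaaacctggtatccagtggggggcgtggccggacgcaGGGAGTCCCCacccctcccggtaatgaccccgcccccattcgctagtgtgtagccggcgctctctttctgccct

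The short form GGNNNTTCC, chosen after the promoters had been read, matched in Icam1, Sele and Selp and in 15.7% of all 32851 promoters of the table. In Icam1 the matches were GGAAATTCC, which matched the form on both strands, and GGAAATACC on the minus strand. In Sele the match was GGATATTCC on the plus strand, and in Selp it was GGAAAGGCC on the minus strand, 6 to 14 bases before the start. The NF-kB consensus, which can overlap the short form, matched in 1 of the 6 promoters, Kdr, as GGGAGTCCCC, and in 7.25% of all promoters. It did not match in Icam1, Sele or Selp. The ETS core GGAAG, bound by the factor family that drives many endothelial genes, matched on either strand in 5 of the 6 promoters, all but Tek, and in 64.1% of all promoters. These are matches of letters and no measurement of binding.

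Icam1 binds the beta-2 integrins of leukocytes. It was at 11.9, 14.5 and 13.6 CPM in the vehicle libraries and at 7.30, 9.70 and 12.7 CPM in the setanaxib libraries. Only setanaxib replicate 3 reached into the vehicle range. The means were 13.3 ± 1.32 and 9.91 ± 2.71 CPM (SD, n = 3), with a log2 fold change of -0.43 (SE 0.21, interval -0.95 to 0.09, edgeR adjusted p = 0.665). Without setanaxib replicate 3 the log2 fold change was -0.65 (SE 0.17, adjusted p = 0.252), and without setanaxib replicate 1 it was -0.26 (adjusted p = 0.639). An antisense gene, Gm47079, overlaps 511 exon bases of Icam1 in the reference annotation, and reads of the 2 cannot be told apart without strand.

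Vcam1 binds the alpha-4 integrin of monocytes and lymphocytes, and macrophages and stromal cells can express it too. It was at 19.1, 21.6 and 21.7 CPM in the vehicle libraries and at 6.77, 13.4 and 25.8 CPM in the setanaxib libraries. Vehicle libraries lay within 1.13-fold of each other, and setanaxib libraries spanned 3.81-fold, from the lowest to the highest of the series. The log2 fold change was -0.44 (SE 0.45, edgeR adjusted p = 0.855). It was -1.04 without setanaxib replicate 3 (SE 0.30, adjusted p = 0.272) and -0.09 without setanaxib replicate 1 (adjusted p = 0.940). The antisense gene Gm43109 overlaps 61 bases of its exons. Of 10 fibroblast markers 9 were lower, 5 had groups apart and 5 were at an unadjusted p under 0.05, beside 9.46% apart and lower and 8.46% under 0.05 among all genes tested. Their summed level was 1657 to 2384 CPM with vehicle and 1449 to 2634 CPM with setanaxib. Of 10 smooth muscle and pericyte markers 8 were lower, 4 had groups apart and 2 were at an unadjusted p under 0.05, with a summed level of 1130 to 1259 CPM with vehicle and 823 to 1248 CPM with setanaxib. No marker of either list was at 0 in any library. The part of stromal cells in the value of Vcam1 was not tested.

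Sele encodes E-selectin, which only activated endothelium makes in quantity. It was at 1.17, 3.22 and 1.29 CPM in the vehicle libraries and at 1.17, 0.768 and 1.5 CPM in the setanaxib libraries, on 101 to 471 estimated counts. Vehicle replicate 2 stood above the other 5 libraries, which all lay between 0.768 and 1.5 CPM. The log2 fold change was -0.72 (SE 0.48, interval -1.88 to 0.44, edgeR adjusted p = 0.748), -0.10 without vehicle replicate 2 and -0.96 without setanaxib replicate 3.

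Selp encodes P-selectin, which endothelial cells store beside Vwf and which platelets carry as well. It was at 1.418, 2.65 and 1.18 CPM in the vehicle libraries and at 0.487, 0.844 and 3.03 CPM in the setanaxib libraries. Setanaxib replicates 1 and 2 were the lowest of the series and setanaxib replicate 3 the highest. The log2 fold change was -0.27 (SE 0.71, edgeR adjusted p = 0.956), -1.39 without setanaxib replicate 3 (SE 0.48, adjusted p = 0.330), 0.14 without setanaxib replicate 1, 0.01 without setanaxib replicate 2 and 0.16 without vehicle replicate 2. It was -0.40 and -0.49 without vehicle replicates 1 and 3. The summed level of all 7 platelet markers was 7.47, 26.5 and 9.44 CPM in the vehicle libraries and 17.4, 17.9 and 15.4 CPM in the setanaxib libraries, and the markers Gp1bb and Gp6 were at 0 in vehicle replicate 1. Among the vehicle libraries replicate 2 was highest both in this sum and in Selp. The part of platelets in the value of Selp was not tested. Antisense genes Gm16548 and Gm16587 overlap 438 and 186 bases of the exons of Selp.

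**Figure D3:**
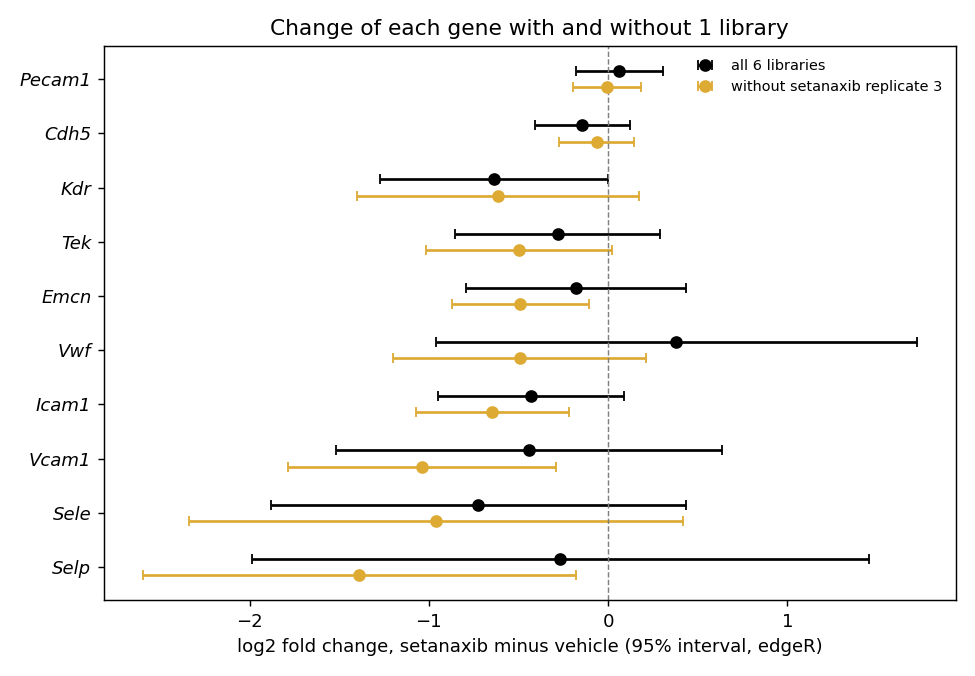
Log2 fold change of each member, setanaxib minus vehicle, with its 95% interval from edgeR, over all 6 libraries (black) and without setanaxib replicate 3 (yellow). Without that library Vwf turns from 0.38 to -0.49, Vcam1 moves from -0.44 to -1.04 and Selp from -0.27 to -1.39, while Pecam1 and Cdh5 stay near 0.

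In setanaxib replicate 3, 5 of the 10 members were highest, so leaving it out lowers their setanaxib means. Without setanaxib replicate 3 all 10 members had a negative log2 fold change, Pecam1 at only -0.0056. At an unadjusted p under 0.05 there were then 4, Emcn, Icam1, Vcam1 and Selp, where 13.6% of all genes tested in that fit were, and none passed after adjustment. The fit sets 2 setanaxib libraries against 3 of vehicle. The median over the 6 identity genes moved from -0.16 to -0.49 and that over the 4 adhesion molecules from -0.43 to -1.0, beside medians of 0.01 and 0.00 over all genes tested. Without setanaxib replicate 1 the medians were -0.04 and -0.17. Members at an unadjusted p under 0.05 numbered 1, Kdr, without setanaxib replicate 2, where 2088 of 21068 genes tested were. They numbered 0 without setanaxib replicate 1 and without any 1 of the vehicle replicates.

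Relative to the identity genes of the same library, and by means over the members, adhesion molecules were lowest in setanaxib replicates 1 and 2. The mean log2 CPM of the 4 adhesion molecules minus that of the 6 identity genes was -4.62, -3.94 and -4.36 in vehicle replicates 1 to 3 and -4.87, -4.94 and -4.23 in setanaxib replicates 1 to 3. The groups overlapped, with setanaxib replicate 3 second highest. The order rests on the use of means: with medians over the members setanaxib replicate 1 was at -4.69, above vehicle replicates 1 (-5.05) and 3 (-4.71), and the difference between the groups went from -0.37 to -0.18. With Icam1 and Vcam1 alone the difference was -2.86, -2.64 and -2.46 with vehicle and -3.27, -3.04 and -2.69 with setanaxib, again with setanaxib replicate 3 inside the vehicle range. Set beside Pecam1 alone, Icam1 was at log2 ratios of -3.41, -3.25 and -3.20 with vehicle and of -4.09, -3.77 and -3.55 with setanaxib. By that measure no setanaxib library overlapped a vehicle library for Icam1, a pair looked at after the values were seen and not tested. The same held between identity genes, for Tek and Kdr beside Pecam1 and for Kdr beside Cdh5. For Vcam1, Sele, Selp, Cdh5, Emcn and Vwf beside Pecam1 the groups overlapped. The share of such ratios apart over all genes was not computed.

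None of the other endothelial genes passed the test. Of 26 further genes of these cells 19 were lower and 7 higher, 0 passed edgeR or DESeq2, 5 were at an unadjusted p under 0.05, and the median log2 fold change was -0.13, beside 0.01 for all genes tested, of which 48.4% were lower. Tie1, the partner receptor of Tek, was between 62.5 and 76.0 CPM in all libraries (log2 fold change -0.09, SE 0.09), and the endothelial nitric oxide synthase Nos3 between 19.2 and 29.2 CPM (0.00, SE 0.16). The tight junction gene Cldn5 had a log2 fold change of -0.58 (SE 0.30) with overlapping groups. Of 17 tested transcription factors 10 were lower, 0 passed edgeR or DESeq2 and 3 were at an unadjusted p under 0.05. Among all genes tested 8.46% were under 0.05. Erg, which maintains endothelial identity, was at -0.12 (SE 0.13), and the flow-responsive factor Klf2 at -0.03 (SE 0.18). Sox17, a factor of arterial endothelium, was at 11.1, 10.1 and 10.3 CPM in the vehicle libraries and at 27.4, 11.04 and 0.622 CPM in the setanaxib libraries, so that its group means hide opposite single libraries.

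Ligands and receptors of vessel growth signalling were lower more often than not. Of 18 tested, 16 were lower, with a median log2 fold change of -0.44. None passed edgeR, and 3 were at an unadjusted p under 0.05, beside 8.46% of all genes tested. DESeq2 called the same 3, Vegfa, Nrp2 and Apln, beside 2.41% of all genes. Groups stood apart for 5, all lower, beside 9.46% of all genes. Vegfa, the main ligand of Kdr, was at 280, 272 and 255 CPM in the vehicle libraries and at 156, 210 and 148 CPM in the setanaxib libraries. All setanaxib libraries lay below all vehicle libraries, as for its receptor Kdr (log2 fold change -0.65, SE 0.15, edgeR adjusted p = 0.383, DESeq2 adjusted p = 0.00661). Nrp2, a co-receptor of VEGF, averaged 53.8 ± 4.32 and 36.1 ± 4.59 CPM, and Apln, an endothelial peptide, 5.87 ± 1.31 and 2.81 ± 0.546 CPM (SD, n = 3), both with an edgeR adjusted p of 0.356. Flt1, the decoy receptor of VEGF-A, was at -0.05 (SE 0.17) and Ptprb, the phosphatase of Tek, at -0.07 (SE 0.11). Of the Tek ligands, Angpt1 was at 19.1, 20.5 and 24.6 CPM in the vehicle libraries and at 17.9, 38.4 and 68.3 CPM in the setanaxib libraries, highest in setanaxib replicate 3, and Angpt2 had a log2 fold change of -0.50 (SE 0.41).

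Genes stored with Vwf or acting on it were mixed. Of 14 tested, 8 were lower and 6 higher, with a median of -0.11. DESeq2 called 1, beside 2.41% of all genes tested. It was Igfbp7, a secreted vessel protein, at 105 ± 9.81 and 70.6 ± 5.74 CPM (SD, n = 3, log2 fold change -0.57, edgeR adjusted p = 0.303). The endothelin gene Edn1 was at -0.61 (SE 0.34), thrombomodulin, Thbd, at -0.18 (SE 0.11), and F8, the clotting factor that Vwf carries, at -0.03 (SE 0.18), and none of these 3 passed.

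Leukocyte partners of the adhesion molecules were mostly lower. Of 17 tested, 14 were lower, with a median of -0.38, and 0 passed edgeR or DESeq2. At an unadjusted p under 0.05 there were 5, beside 8.46% of all genes tested. Itgb2 and Itgam, which form the Mac-1 integrin that binds Icam1, had log2 fold changes of -0.75 (SE 0.23, edgeR adjusted p = 0.472) and -0.86 (SE 0.29, adjusted p = 0.508). Selplg, the P-selectin ligand of leukocytes, was at 9.38, 12.2 and 6.06 CPM in the vehicle libraries and at 3.75, 5.66 and 5.93 CPM in the setanaxib libraries (adjusted p = 0.530). For all 3 genes the groups stood apart, for Selplg by a narrow margin. Over the list 7 stood apart, all lower, beside 9.46% of all genes tested. Itga4, which binds Vcam1, was at -0.38 (SE 0.26), and Itgal, the LFA-1 chain of lymphocytes, at 0.06 (SE 0.56), with its highest value in setanaxib replicate 3. Macrophage markers were lower as well: 9 of 10 were lower, and 9 had groups that stood apart, all lower, beside 9.46% of all genes tested. None passed edgeR, 8 were at an unadjusted p under 0.05, beside 8.46% of all genes, and DESeq2 called 5, beside 2.41%. The summed level of these markers was 342 to 438 CPM with vehicle and 219 to 276 CPM with setanaxib, and Fcgr1 was at 0 in setanaxib replicate 1. Their part in the leukocyte partners, or in Icam1 and Vcam1, was not tested. Neutrophil markers were near 0 in both groups, with a summed level of 2.43 to 8.58 CPM and Ly6g at 0 in all 6 libraries.

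Cytokine and NF-kB genes form 1 list that mixes inducers with inhibitors and response genes. A count over it therefore gives no direction of the signal. Of 22 tested, 18 were lower, with a median of -0.24. None passed edgeR and 6 were at an unadjusted p under 0.05, beside 8.46% of all genes tested. Groups stood apart for 8 lower and 2 higher, beside 17.6% of all genes in either direction. DESeq2 called 2, beside 2.41% of all genes. They were Nfkb2 (28.9 ± 0.458 and 21.6 ± 0.503 CPM, SD, n = 3) and the TNF receptor gene Tnfrsf1b (20.4 ± 1.03 and 11.6 ± 3.45 CPM). Tnf was low throughout, at 1.05, 0.945 and 0.728 CPM in the vehicle libraries and at 0.220, 0.395 and 0.539 CPM in the setanaxib libraries, with groups apart (edgeR adjusted p = 0.495). The NF-kB response gene Tnfaip3 was at -0.65 (SE 0.19, adjusted p = 0.457), and the receptor Tnfrsf1a at -0.24 (SE 0.15). Nfkbia, an inhibitor and target of NF-kB, was at 102 CPM in setanaxib replicate 1 and between 15.6 and 18.9 CPM in the other 5 libraries. Irf1 was at -0.21 (SE 0.34), and Il1b stayed under 1 CPM and was at 0 in setanaxib replicate 3. Other junction and transmigration genes had a median of 0.01 over 11 tested, 5 lower and 6 higher, with 0 at an unadjusted p under 0.05. Icam2, the constitutive relative of Icam1, was at -0.19 (SE 0.14) and Jam2 at -0.10 (SE 0.12).

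**Figure D4:**
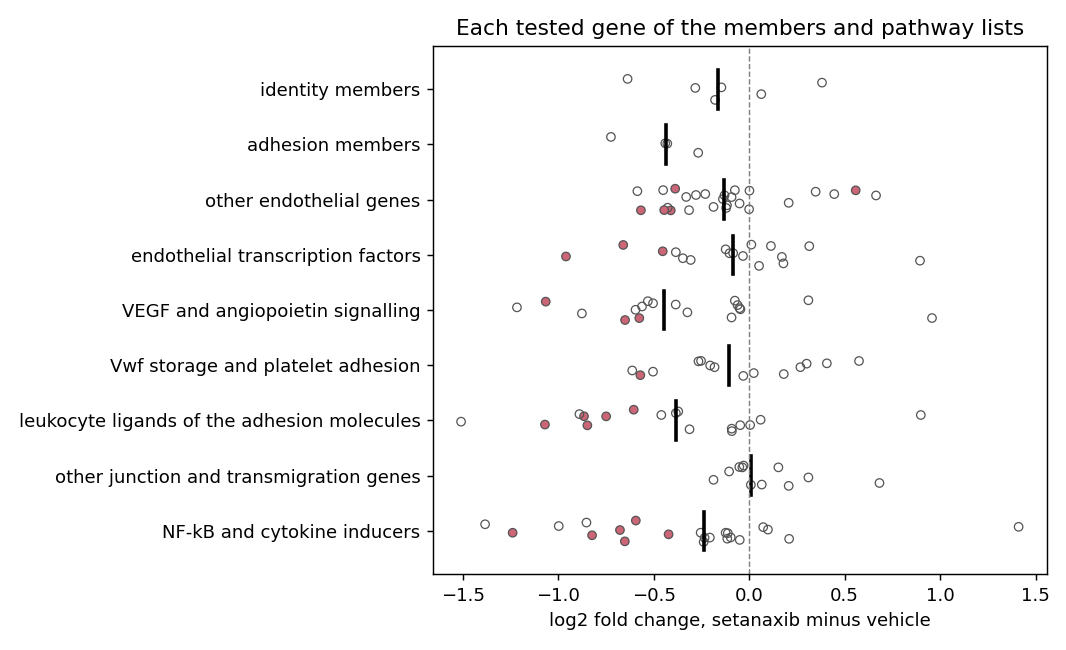
Log2 fold change, setanaxib minus vehicle, of every tested gene of the 2 member sets and the 7 pathway lists; each circle is a gene, filled where the unadjusted edgeR p was under 0.05, and the bar is the list's median. Medians run from -0.44 for vessel growth signalling to 0.01 for other junction genes, and no gene shown passed edgeR after adjustment over all genes.

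Over all 7 pathway lists together, 119 different genes were tested, 85 of them lower and 34 higher, where 48.4% of all genes tested were lower. Of the 119, 23 were at an unadjusted p under 0.05, 22 lower and 1 higher, beside 8.46% of all genes, and 35 had groups that did not overlap, beside 17.6% of all genes. None passed edgeR after adjustment, and the 6 named above passed DESeq2, all lower, beside 2.41% of all genes. Without setanaxib replicate 3 the lower genes numbered 19 of 26 for other endothelial genes, 11 of 17 for transcription factors, 13 of 18 for vessel growth signalling and 11 of 14 for genes linked to Vwf. They were then 14 of 17 for leukocyte partners, 18 of 22 for cytokine and NF-kB genes and 7 of 11 for other junction genes. The share of genes at an unadjusted p under 0.05 in that fit, to be read against the 13.6% above, was 10 of 26, 3 of 17, 8 of 18 and 3 of 14 for the first 4 of these lists in that order. It was 6 of 17, 9 of 22 and 0 of 11 for the other three, and no gene of the 7 lists passed edgeR's test after adjustment. Over the 6 fits without 1 library, these counts ran from 1 to 10 of 26 for other endothelial genes. They ran from 3 to 8 of 18 for vessel growth signalling, 4 to 9 of 22 for cytokine and NF-kB genes and 0 to 5 of 17 for transcription factors. Among all genes tested the count was also highest without setanaxib replicate 3, at 2834, against 990 to 2126 in the other fits.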

How the data were processed

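Heart RNA was sequenced in 6 libraries as paired ends of 150 bases, per the labels' protocols. The authors deposited estimated counts per gene as whole numbers, not scaled between libraries. The submitters' processing notes list FastQC 0.11.9, STAR 2.5.4b, featureCounts 2.0.1, DESeq2 1.42.0 and GRCm39, with no step assigned, while per the file headers the names have the form of StringTie's count script. Whether counting used strand is not stated in these sources. The values were whole already, so rounding for the count test changed nothing; the plan had assumed a count test and it was kept.

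In R 4.3.3, genes were kept by edgeR's (4.0.16) filterByExpr (minimum count 10), scaled by TMM and tested with the quasi-likelihood F test, two-sided. Standard errors and 95% intervals come from that F statistic. Log2 CPM used a prior count of 2. DESeq2 (1.42.0) ran on the same genes, and limma-voom (limma 3.58.1) was an alternative, with other scalings, no filter and each library left out. The edgeR step was tested on simulated data. No library pair matched within counting noise (chi-square per degree of freedom at least 38.3 over 15 pairs).

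Exon lengths and overlaps are merged exons of GENCODE M21 (GRCm38), used without coordinates. Replicates were numbered in record order. The members and gene lists were chosen with earlier results of these data known. Genes named beyond the members were 27 chosen for their role, those of the pathway lists past a threshold, and markers whose level bears on a member.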

Additional observations from a re-analysis of the deposited data

How the results depend on the processing

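Of 120 refits of the 10 members (12 alternatives each), 115 kept the direction and none passed the threshold. The 5 that turned were Pecam1 at -0.0056 and Vwf at -0.49 without setanaxib replicate 3, and Selp at 0.16 without vehicle replicate 2, 0.14 without setanaxib replicate 1 and 0.007 without setanaxib replicate 2. Over the fits without 1 library Pecam1 ran from -0.0056 to 0.11, Vwf from -0.49 to 0.75 and Selp from -1.39 to 0.16. Members past the threshold numbered 0 in every alternative run. Over all genes, edgeR called 1; DESeq2 called 494 (184 higher, 310 lower) and limma-voom 0, with 1962 genes at an unadjusted p under 0.05, and the count without 1 library ran from 0 to 1 (0 without vehicle replicate 1, 2 or 3). Over the pathway lists DESeq2 called 6 where edgeR called 0. The setanaxib minus vehicle difference of the adhesion to identity log2 ratio was -0.37, with -0.37 and -0.36 at prior counts of 0.5 and 5 and -0.18 with medians over the members. No paired analysis was possible because the labels give the groups no shared replicate numbers. Depth limited Sele and Selp most, with as few as 101 and 62 estimated counts in a library.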
